A study of Rattus norvegicus with 18 samples.

Results

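Hmgcs1, Idi1, Fdps, Fdft1, Sqle, Cyp51 and Dhcr7 encode enzymes of cholesterol synthesis, and Insig1 encodes a membrane protein that restrains the pathway. These 8 genes were found by their gene name on the arrays, through all 14 probes that carry one of the names, out of 41012 probes and 16235 named genes. All 14 probes were detected in each brain area and were well above background in all 36 array channels, and none had a saturated spot. Hmgcs1, Idi1 and Fdps have 2 probes each, Insig1 has 4 and the other genes have 1. Where 1 value is given for a gene, it is that of its brightest probe.

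Cholesterol is built from acetyl-CoA through mevalonate, the isoprenoids and squalene. The blood-brain barrier keeps out the cholesterol of blood lipoproteins, so the brain makes its own, in oligodendrocytes for myelin and in astrocytes and neurons for their membranes. The genes of the pathway are known targets of the transcription factor SREBP2, which is held in the endoplasmic reticulum by SCAP and the Insig proteins when sterols are plentiful and is released when they are scarce, so their RNAs often move together.

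The study compared the WHP rat strain, bred to prefer ethanol strongly, with the WLP strain, bred to prefer it little. All animals were males that had never had alcohol, and they were not otherwise treated. Total RNA of 1 brain area (hippocampus, nucleus accumbens or prefrontal medial cortex) was pooled from 3 rats, and a WHP pool was set against a WLP pool on an Agilent two-colour array in Cy3 and Cy5, with a second array that swapped the dyes. This gave 3 pool pairs in each area, 9 pool pairs and 18 arrays in all. Within an area the 3 pool pairs are biological replicates by the labels, which leave unstated whether 1 rat gave tissue to the pools of several areas. A strain difference in such lines cannot be told apart from other alleles fixed during breeding, and a pool hides the spread between rats.

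Median spot signals ran from 78.2 to 209 in green and from 133 to 303 in red. The hippocampus arrays lie on slides 4 and 5, scanned in a second session, so for levels the area cannot be told apart from slide and session. In the other areas, pool pairs of the same number share slides 1 to 3. Over all detected probes the swapped arrays of each pair correlated at 0.30 to 0.70 in 7 pool pairs, at 0.044 in nucleus accumbens pair 3 and at -0.004 in hippocampus pair 2. For several values that one of these 2 pairs sets, the value without it is given beside it. Cortex markers had a mean log2 level of 8.0 in the nucleus accumbens and 9.74 in the prefrontal medial cortex. Striatum markers stood at 10.75 in the nucleus accumbens, 10.63 in the prefrontal medial cortex and 8.74 in the hippocampus, so they set the prefrontal medial cortex apart from the hippocampus and not from the nucleus accumbens.

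SREBP2 acts with the factors NF-Y and Sp1 on promoters of this pathway, so the promoters of the members are shown with the letters that these factors are known to bind. RefSeq promoters (GRCr8) were at hand for 6 members, Hmgcs1, Idi1, Fdps, Cyp51, Dhcr7 and Insig1, and the 250 bases before the table's start of each gene were searched on both strands. That start lies at the 5′ end of the annotated gene for Idi1, Fdps, Cyp51 and Dhcr7, but 43 bases inside it for Insig1 and 2847 bases inside it for Hmgcs1. The CCAAT box of NF-Y was found in 4 of the 6 (66.7%) and in 34% of all 33469 promoters. The Sp1 letters GGGCGG were found in 5 of the 6 (83.3%) and in 30.5% of all promoters. The exact letters TCACNCCAC, a form of the sterol element, were found in none of the 6 and in 0.974% of all promoters. Other forms of the element were not searched for, so this does not show that these promoters lack one. In the windows below capitals mark CCAAT boxes, written ATTGG where the box is on the other strand.
Hmgcs1 (chr2:53382096-53382195, plus strand, bases 208 to 109 before the start): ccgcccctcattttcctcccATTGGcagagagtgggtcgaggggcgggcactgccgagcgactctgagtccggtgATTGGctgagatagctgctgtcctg
Idi1 (chr17:66547535-66547610, minus strand, bases 86 to 11 before the start): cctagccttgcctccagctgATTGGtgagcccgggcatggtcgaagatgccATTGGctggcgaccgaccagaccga
Fdps (chr2:176804877-176804966, minus strand, bases 150 to 61 before the start): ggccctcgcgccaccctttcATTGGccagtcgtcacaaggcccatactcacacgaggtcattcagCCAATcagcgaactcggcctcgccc
Insig1 (chr4:8057938-8057982, minus strand, bases 213 to 169 before the start): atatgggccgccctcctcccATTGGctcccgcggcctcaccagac

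Fdps holds 2 boxes of opposite orientation, Hmgcs1 and Idi1 hold 2 inverted boxes each, and Insig1 holds 1. Such matches describe the letters in these windows. Probe sequences are shown for Fdps and Fdft1, whose strain ratios moved closely together, and for Cyp51, whose ratio did not follow them, with rn4 coordinates as the array files give them. Each of these 4 has at least 1 reading frame without a stop before its last codon. The probes of Fdps span introns in the genome, so each coordinate range is longer than the 60 bases of the probe.
Fdps A_44_P143567 (chr2:181169679-181170179, minus strand): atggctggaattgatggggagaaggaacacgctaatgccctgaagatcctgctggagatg
Fdps A_44_P432965 (chr2:181170192-181170336, minus strand): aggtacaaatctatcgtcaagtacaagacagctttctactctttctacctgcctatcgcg
Fdft1 A_44_P358492 (chr15:42436506-42436565, minus strand): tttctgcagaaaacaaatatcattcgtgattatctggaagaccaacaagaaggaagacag
Cyp51 A_44_P168285 (chr4:26769628-26769687, plus strand): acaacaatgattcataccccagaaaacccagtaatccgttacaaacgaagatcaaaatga

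The first comparison asked whether the RNA of these genes differed between the WHP and WLP strains in each area. A log2 ratio above 0 means more signal from the WHP pool. None of the 8 genes passed the test in any area or in the mean of the areas (limma, Benjamini-Hochberg adjusted p over all detected probes). Each member's adjusted p lay between 0.234 and 0.991 in the nucleus accumbens, between 0.443 and 0.957 in prefrontal cortex, between 0.931 and 1.00 in hippocampus and between 0.384 and 0.954 in the mean. At an unadjusted p under 0.05 there was 1 member in the nucleus accumbens, 2 in the prefrontal medial cortex and 0 in the hippocampus and the mean, beside 16.3%, 8.45%, 6.68% and 17.8% of all detected probes in that order. The same test called 0.252% of all detected probes in the nucleus accumbens, 0.0905% in prefrontal cortex, 0.25% in hippocampus and 2.85% in the mean, so that 0 of 8 lies close to the background. Taken over the members and areas, the 95% intervals of the ratio on the brightest probes ran from 0.756-fold to 1.25-fold, or log2 -0.40 to 0.32. The second Hmgcs1 probe reached beyond them, to log2 -0.45 in the nucleus accumbens and 0.41 in the hippocampus.

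**Figure D1:**
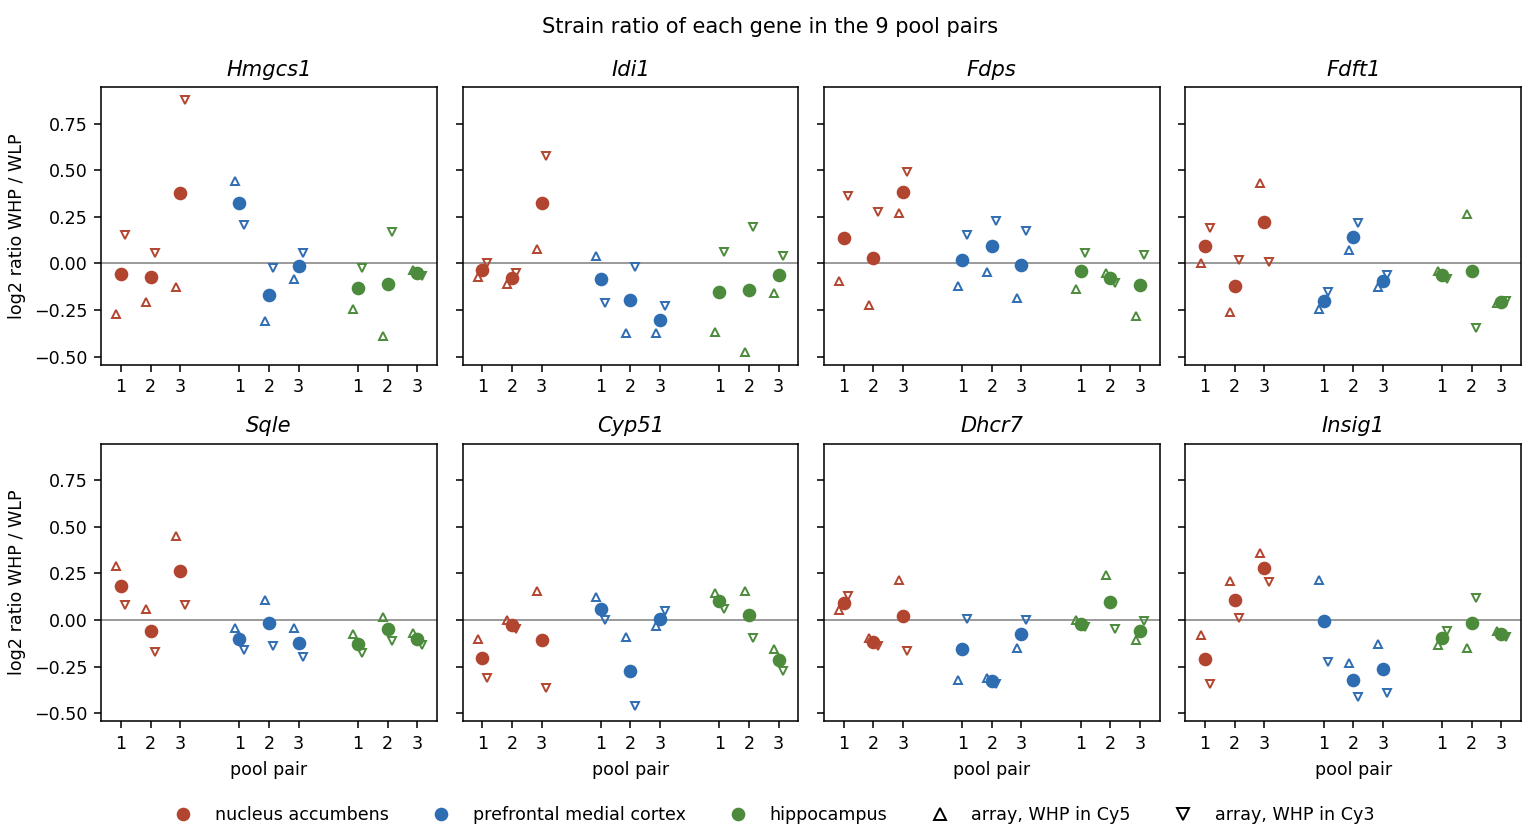
Log2 ratio of WHP over WLP (y axis) in the 9 pool pairs (x axis, numbered within each area by colour) for each of the 8 genes, with filled circles for the pool pair and open triangles for its 2 dye-swapped arrays. In nucleus accumbens pair 3, 7 of the 8 genes lie above 0, while in hippocampus pair 3 all 8 lie below 0.

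Hmgcs1 makes HMG-CoA at the entry to the mevalonate pathway. Its log2 ratios were -0.06, -0.07 and 0.38 in nucleus accumbens pairs 1, 2 and 3. They were 0.32, -0.17 and -0.02 in the prefrontal medial cortex and -0.13, -0.11 and -0.05 in the hippocampus. Single high pairs set the means of the first 2 areas, while the hippocampus pairs all lay below 0. The mean ratio was 0.08 ± 0.11 (moderated SE, n = 3 pool pairs) in the nucleus accumbens, 0.05 ± 0.11 in the prefrontal medial cortex and -0.10 ± 0.11 in the hippocampus. In nucleus accumbens pair 3 the swapped arrays gave -0.12 and 0.88, so this pair's value for Hmgcs1 is the mean of opposite signs, and without that pair the nucleus accumbens mean was -0.07.

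Idi1 interconverts the isoprenoid building blocks isopentenyl and dimethylallyl diphosphate. Its log2 ratios were -0.04, -0.08 and 0.33 in the nucleus accumbens, -0.09, -0.20 and -0.30 in the prefrontal medial cortex and -0.15, -0.14 and -0.06 in the hippocampus. All 6 prefrontal and hippocampus pairs lay below 0, and nucleus accumbens pair 3 again stood apart above it. The prefrontal mean was -0.19 ± 0.08 with an unadjusted p of 0.034 and an adjusted p of 0.565 (limma). These values are of the brightest probe. On the second Idi1 probe the prefrontal mean was smaller, -0.06 ± 0.08 (unadjusted p 0.479, limma), and prefrontal pair 1 lay above 0, at 0.07.

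Fdps joins these blocks into farnesyl diphosphate, from which both sterols and prenyl groups are made. Its log2 ratios were 0.13, 0.03 and 0.38 in the nucleus accumbens, 0.02, 0.09 and -0.01 in the prefrontal medial cortex and -0.04, -0.08 and -0.12 in the hippocampus. Fdps was the member with the lowest p in the nucleus accumbens, where all 3 pairs were positive, and its hippocampus pairs were all negative without overlap. The nucleus accumbens mean was 0.18 ± 0.06 (unadjusted p 0.0186, adjusted p 0.234, limma). Without nucleus accumbens pair 3 it was 0.08. The SD of the Fdps pairs was 0.18 in the nucleus accumbens, 0.05 in the prefrontal medial cortex and 0.04 in the hippocampus, while the SE is shared. Over the 9 arrays with WHP in Cy3 the mean Fdps ratio was 0.19 and over the 9 with WHP in Cy5 it was -0.10, and only 2 of 9 pool pairs had the same sign on both arrays. With the Cy5 arrays alone the nucleus accumbens ratio was -0.01 and with the Cy3 arrays alone 0.38, so a dye effect cannot be told apart from a strain effect within 1 orientation.

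Fdft1 is squalene synthase, the first enzyme committed to sterols. Its log2 ratios were 0.10, -0.12 and 0.22 in the nucleus accumbens, -0.20, 0.14 and -0.09 in the prefrontal medial cortex and -0.06, -0.04 and -0.21 in the hippocampus. Signs were mixed in the first 2 areas and negative in the hippocampus, whose mean was -0.10 ± 0.08. Sqle, squalene epoxidase, a second control point of the pathway, had log2 ratios of 0.19, -0.06 and 0.27 in the nucleus accumbens, -0.10, -0.02 and -0.12 in the prefrontal medial cortex and -0.13, -0.05 and -0.10 in the hippocampus. Every prefrontal and hippocampus pair of Sqle lay below 0. Its means were 0.13 ± 0.06, -0.08 ± 0.06 and -0.09 ± 0.06 in that order of areas, with unadjusted p of 0.0567, 0.212 and 0.159 (limma). The nucleus accumbens mean of Sqle was 0.06 and that of Fdft1 -0.01 without nucleus accumbens pair 3.

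Cyp51 removes a methyl group from lanosterol. Its log2 ratios were -0.21, -0.03 and -0.10 in the nucleus accumbens, 0.06, -0.28 and 0.01 in the prefrontal medial cortex and 0.10, 0.03 and -0.21 in the hippocampus. It was the only member below 0 in every nucleus accumbens pair, with a mean of -0.11 ± 0.08. Dhcr7, which reduces the immediate precursor of cholesterol, had log2 ratios of 0.09, -0.12 and 0.02 in the nucleus accumbens, -0.16, -0.33 and -0.08 in the prefrontal medial cortex and -0.02, 0.10 and -0.06 in the hippocampus. Only its prefrontal pairs shared a sign, with a mean of -0.19 ± 0.06, the lowest p of any member there (unadjusted p 0.0134, adjusted p 0.443, limma). Without prefrontal pair 2 that mean was -0.12.

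Insig1, the sterol-dependent brake on SREBP2 processing and itself a target of it, had log2 ratios of -0.21, 0.11 and 0.28 in the nucleus accumbens. They were -0.00, -0.32 and -0.26 in the prefrontal medial cortex and -0.09, -0.02 and -0.08 in the hippocampus. On this brightest probe no pair outside the nucleus accumbens lay above 0. Its other probes all lay above 0 in hippocampus pairs 1 and 2, at 0.03 to 0.22. In hippocampus pair 2 each of these values is the mean of opposite signs. The array with WHP in Cy5 gave 0.47 to 0.73 and that with WHP in Cy3 gave -0.28 to -0.08. The nucleus accumbens means of these other probes were -0.08, -0.06 and -0.18, against 0.06 on the brightest. The prefrontal mean was -0.20 ± 0.09 (unadjusted p 0.0604, adjusted p 0.611, limma). Swapped arrays of a pool pair differed by a median of 0.10 (Dhcr7) to 0.27 (Fdps) over the members. That gap holds any dye offset of the probe, which cancels in the pair's mean. The SD of the pair means over the 9 pool pairs was 0.13 to 0.20.

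**Figure D2:**
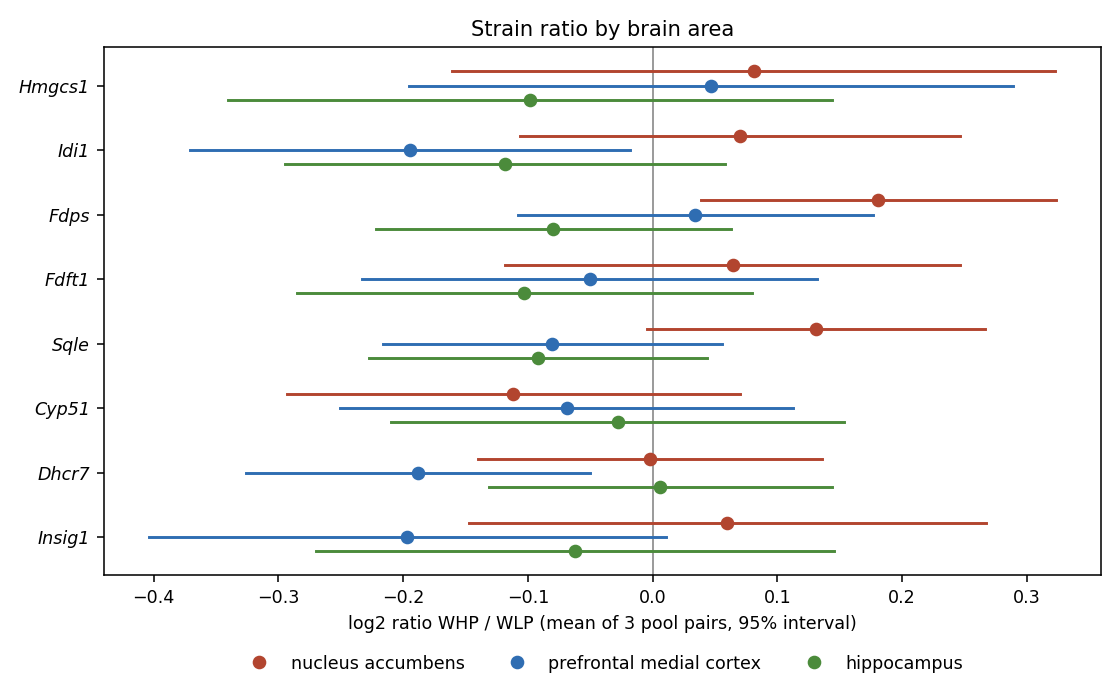
Mean log2 ratio of WHP over WLP (x axis) with its 95% interval from limma for each gene (y axis) in the 3 areas (colours), n = 3 pool pairs each. Fdps in the nucleus accumbens and Idi1 and Dhcr7 in the prefrontal medial cortex have intervals that leave out 0 before adjustment, and none of them passed after it.

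Across the 8 members the median log2 ratio was 0.07 in nucleus accumbens, -0.07 in prefrontal cortex, -0.09 in hippocampus and -0.05 in the mean of the areas, while the median of all detected probes was 0.00 in each. Negative means were found for 2, 6 and 7 of the 8 members in that order of areas, against 49.6%, 49.2% and 51.9% of all probes. On their brightest probes 6 members were negative in every hippocampus pair, as were 20.8% of all probes. In the prefrontal medial cortex 4 were, as were 14.5% of all probes. Not all probes of Hmgcs1 and Insig1 were negative in every hippocampus pair, nor all probes of Idi1 and Insig1 in every prefrontal pair. The members were chosen with earlier results of these data in view, and these counts are given as a description. Without nucleus accumbens pair 3 the nucleus accumbens median turned to -0.03, and without hippocampus pair 3 the hippocampus median was -0.06. No difference between areas passed for any member, and no probe of the whole array passed (limma, 0 of 28502, 29842 and 28588 probes). The lowest unadjusted p of a member was 0.0346 for the nucleus accumbens minus the prefrontal medial cortex (Sqle), 0.0172 for the nucleus accumbens minus the hippocampus (Fdps) and 0.0507 for the prefrontal medial cortex minus the hippocampus (Dhcr7). Leaving out nucleus accumbens pair 3 gave unadjusted p of 0.121 for Sqle and 0.0372 for Fdps. Unadjusted p-values under 0.05 were found for 2, 2 and 0 members, and for 3.33%, 8.63% and 3.6% of all probes.

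Markers of oligodendrocytes, meninges, choroid plexus, striatum, cortex and blood cells differed between the pools of single pairs by more than any member did on its brightest probe. The medians of astrocyte, neuron, microglia and endothelium markers stayed between -0.32 and 0.25. Over the 9 pool pairs the medians ran from -1.01 to 0.45 for striatum, -0.33 to 0.47 for cortex and -0.63 to 0.10 for blood cell markers. Oligodendrocyte markers, 12 of 12 detected, had median log2 ratios of -0.47, 0.22 and -0.30 in nucleus accumbens pairs 1 to 3, -0.72, 0.45 and 0.33 in the prefrontal pairs and 0.32, 0.25 and 0.10 in the hippocampus pairs. Meninges and fibroblast markers, 7 of 7 detected, had 1.30, 2.51 and -1.16 in the nucleus accumbens, and choroid plexus and ependyma markers, 5 of 7 detected, had 0.68, -0.40 and -0.66. Nucleus accumbens pair 3, where the members were highest, was thus the nucleus accumbens pair lowest in both of these. Over the 9 pool pairs the mean ratio of the members correlated at -0.56 with oligodendrocyte markers, -0.59 with choroid plexus markers, -0.38 with meninges markers, 0.39 with neuron markers and 0.49 with blood cell markers, and these points share arrays and pools. These values were -0.72, -0.53, 0.10, 0.74 and 0.62 in that order without nucleus accumbens pair 3. Striatum and cortex markers had -0.10 and 0.33 over the 9 pool pairs, and -0.64 and 0.65 without that pair. The part of cell makeup in the members' ratios was not tested, and in such bulk RNA fewer cells of a type and less RNA per cell cannot be told apart.

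The second question was whether the strain ratios of the members moved together from one pool pair to the next. Over the 9 pool pairs the median Pearson r of the 28 gene pairs was 0.36 (Spearman 0.21), and 24 of the 28 were positive. Over all 12512 named genes detected in the 3 areas the median r was 0.00, and 22.2% of all gene pairs had an r above 0.36. With ratios centred on the area mean the members' median was 0.33. The closest gene pairs were Sqle with Fdps (0.88), Sqle with Fdft1 (0.82), Fdps with Fdft1 (0.81), Sqle with Idi1 (0.79) and Idi1 with Insig1 (0.79). Cyp51 was the exception, with a negative r to Sqle (-0.44), Fdft1 (-0.45), Fdps (-0.28) and Idi1 (-0.19). Its r to Insig1 (0.31), Dhcr7 (0.26) and Hmgcs1 (0.19) was positive. All points share arrays, dyes and slides, and each r is a description.

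This co-variation rested on a single pool pair. In nucleus accumbens pair 3 the mean of the 8 members was 0.22. It was 0.21 on the array with WHP in Cy3 and 0.23 on that with WHP in Cy5. These arrays were uncorrelated over all probes, and single members differed between them. With WHP in Cy5 and then Cy3, Hmgcs1 had -0.12 and 0.88, Cyp51 0.16 and -0.37, and Dhcr7 0.21 and -0.17. Fdft1 had 0.43 and 0.01, and Sqle 0.45 and 0.08. Idi1 had 0.08 and 0.58, Fdps 0.27 and 0.49, and Insig1 0.36 and 0.20. The other 8 pool pairs had means between -0.13 and -0.00. Without nucleus accumbens pair 3 the median r fell to 0.04 with 15 of 28 positive. Without both pool pairs of uncorrelated dye-swapped arrays it was 0.02, an alternative chosen after seeing the data. Over the arrays with WHP in Cy3 it was 0.05, and over those with WHP in Cy5 0.43. Leaving out any other pool pair gave 0.36 to 0.49. The 3 closest gene pairs, those among Fdps, Fdft1 and Sqle, then had 0.72 for Sqle with Fdps, 0.69 for Fdps with Fdft1 and 0.68 for Sqle with Fdft1. These 3 were singled out for their values, and 5.74% of all gene pairs had an r at least as high as the lowest of them over the same 8 pool pairs. Hmgcs1 with Idi1 dropped from 0.68 to 0.20. In all 13 of the 28 were then negative, with the lowest at -0.66 for Fdft1 with Insig1 and -0.58 for Hmgcs1 with Fdft1.

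**Figure D3:**
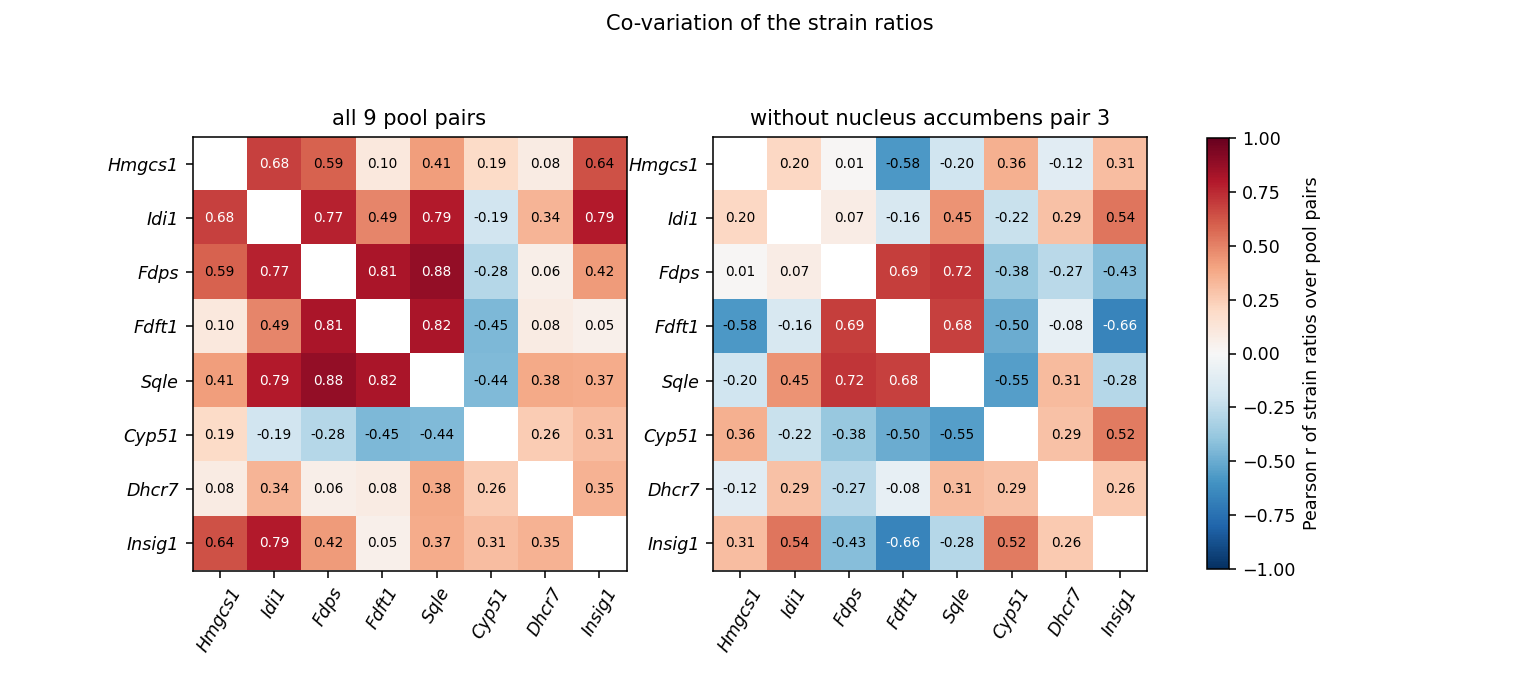
Pearson r (colour and number) between the strain ratios of each pair of genes over all 9 pool pairs (left) and over the 8 pool pairs without nucleus accumbens pair 3 (right). The block of Fdps, Fdft1 and Sqle has r of 0.68 or more in both, and most other values are smaller on the right.

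The 10 genes outside the 8 whose strain ratio was most like the members' mean had Pearson r from 0.90 to 0.95 over the 9 pool pairs, led by Or51e1 (0.95), Lsg1 (0.94) and Nbea (0.94). Of these 10, Mvd (0.92), the decarboxylase that makes isopentenyl diphosphate, belongs to the same pathway and Pdss2 (0.91) to the prenyl branch that makes the tail of coenzyme Q. In all, 364 of the 12512 genes (2.91%) had an r over 0.7. Without nucleus accumbens pair 3 the r of Mvd was 0.77, of Pdss2 0.82 and of Or51e1 0.70.

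The other enzymes of the pathway form a list of 14, of which 13 were detected. No enzyme of this list passed the strain test in any area or in the mean (limma). At an unadjusted p under 0.05 there were 1 in nucleus accumbens, 5 in prefrontal cortex, 2 in hippocampus and 3 in the mean, against 16.3%, 8.45%, 6.68% and 17.8% of all detected probes. Their median log2 ratios were 0.01, -0.09 and -0.05 in that order of areas, with 6, 10 and 10 of 13 negative. Mvd had the lowest prefrontal value, -0.26 ± 0.07 (adjusted p 0.353), and -0.17 ± 0.04 in the mean of the areas (adjusted p 0.0825). Lss, which closes squalene epoxide into lanosterol, had -0.14 ± 0.06 in the prefrontal medial cortex (unadjusted p 0.0400, adjusted p 0.579, limma). Acat2, which makes the acetoacetyl-CoA that Hmgcs1 uses, had 0.12 ± 0.05 in the nucleus accumbens and -0.15 ± 0.05 in the prefrontal medial cortex (unadjusted p 0.0364 and 0.0167). With the members' mean, 4 of the 13 had an r over 0.7 (Mvd, Pmvk, Acat2 and Nsdhl, of which Pmvk is named after its value was seen), and the median was 0.49. Without nucleus accumbens pair 3 the median was 0.50, but 2 of the 13 were over 0.7, as Pmvk had 0.56, Acat2 0.49 and Nsdhl 0.11.

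Neighbouring pathways gave 1 call in the mean of the areas among 38 detected genes (2.63%), close to the 2.85% of all probes called there, and 0 in each area. All 6 genes of SREBP control were detected and none passed the test, Srebf2, which encodes SREBP2, standing at -0.23 ± 0.10, -0.20 ± 0.10 and -0.02 ± 0.10 in the 3 areas. Of 7 uptake and transport genes 5 were detected, and all 11 export, turnover and storage genes were, with none past the test. Lcat, which esterifies cholesterol in lipoproteins, had the smallest p of the second list in the nucleus accumbens, at 0.59 ± 0.14 (unadjusted p 0.00263, adjusted p 0.134, limma), and stood at -0.48 ± 0.14 in the prefrontal medial cortex. The median r to the members' mean was -0.54 for uptake and transport and -0.40 for export, turnover and storage, and -0.39 and -0.27 without nucleus accumbens pair 3. Scarb1, a lipoprotein receptor, had -0.86, and -0.59 without that pair. Soat1, which esterifies cholesterol in cells, had -0.87, and -0.47 without it. In the same lists Stard4, a sterol carrier, had 0.70 and Mylip, which marks the LDL receptor for breakdown, 0.47, or 0.54 and -0.22 without that pair. In the prenyl branch 6 of 7 were detected and none passed. Among 10 fatty acid genes Elovl6, an elongase, was lower in WHP in the mean of the areas (-0.27, adjusted p 0.0478), a call held in 5 of 22 alternatives, with values from -0.32 to -0.21.

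The last comparison set the level of the members between brain areas, as the mean of both channels over strains. A level is a log2 intensity of 1 probe and is compared between areas for that probe alone. Between the nucleus accumbens and the prefrontal medial cortex 51.3% of all detected probes passed the test, 26.1% higher and 25.1% lower in the nucleus accumbens. Among the brightest probes of the members 2 of 8 were higher and 2 of 8 lower, close to that background. Hippocampus levels are given as values only.

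Idi1 had levels of 11.64, 11.62 and 11.79 in nucleus accumbens pairs 1 to 3, 11.37, 11.28 and 11.24 in the prefrontal medial cortex and 11.71, 11.72 and 11.67 in the hippocampus. The prefrontal values did not overlap with the others. The nucleus accumbens exceeded the prefrontal medial cortex by 0.39 ± 0.06 on the log2 scale (adjusted p 3.6e-04, limma), and by 0.27, 0.34 and 0.55 within slides 1, 2 and 3. Fdft1 was also higher in the nucleus accumbens, 9.57 ± 0.08 (SD, n = 3) against 9.37 ± 0.05, by 0.20 ± 0.06 (adjusted p 0.0144) and by 0.28, 0.26 and 0.05 within the slides. Its hippocampus mean was 9.28 ± 0.07.

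Cyp51 was lower in the nucleus accumbens, 11.09 ± 0.08 against 11.43 ± 0.09, a difference of -0.34 ± 0.06 (adjusted p 8.3e-04, limma), with -0.26, -0.23 and -0.52 within the slides. Dhcr7 was lower by -0.24 ± 0.08 (adjusted p 0.0267), 10.37 ± 0.06 against 10.61 ± 0.17, with -0.17, -0.08 and -0.48 within the slides, and its call held in 5 of 13 alternatives. With the slide as a block and the hippocampus left out of the limma fit, the adjusted p was 0.0503 for Fdft1 and 0.0714 for Dhcr7, which no longer passed. It was 0.0336 for Hmgcs1, which then did. Leaving out the hippocampus without the block gave 2 members higher and 1 lower. Leaving out only nucleus accumbens pair 3 gave an adjusted p of 0.0764 for Dhcr7 and 0.00783 for Hmgcs1 (limma). Hmgcs1, Fdps, Sqle and Insig1 did not pass without the block on their brightest probes, at -0.20 (adjusted p 0.0568), -0.07, 0.02 and 0.10. When each array was set to its own median in place of quantiles, no member passed and the probes that passed fell from 14611 to 1905. Idi1 then had 0.48 and Cyp51 -0.23, with adjusted p of 0.279 and 0.662. Oligodendrocyte markers had a mean level of 11.55 in the nucleus accumbens, 10.61 in the prefrontal medial cortex and 11.02 in the hippocampus, and neuron markers 13.31, 13.75 and 13.53. Their part in the members' levels was not tested.

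**Figure D4:**
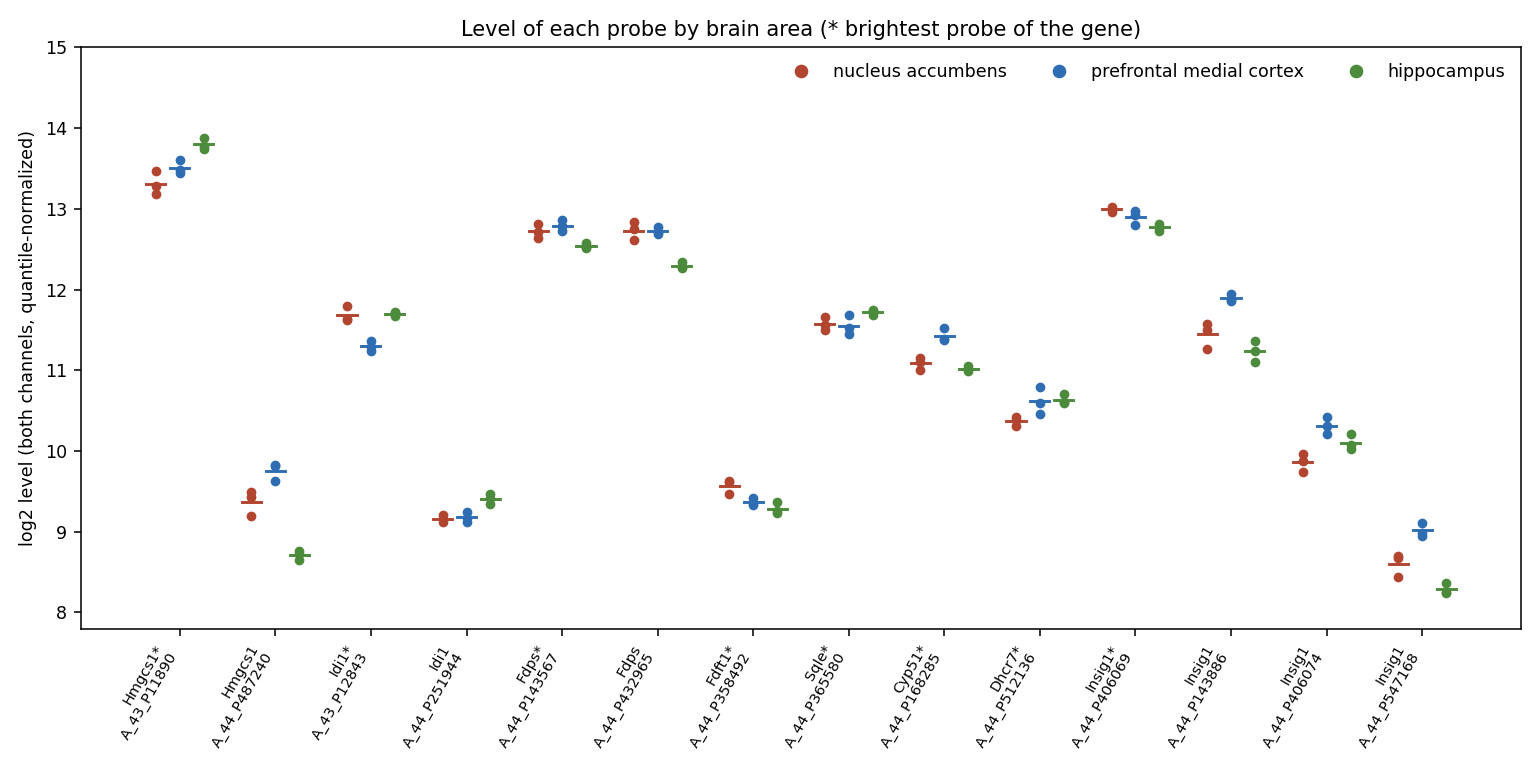
Log2 level (y axis, mean of both channels after quantile normalization between arrays) of each of the 14 probes (x axis, brightest probe of a gene with an asterisk) in the 3 pool pairs of each area (colours), with a bar at the mean. The brightest Hmgcs1 probe is highest in the hippocampus while the other Hmgcs1 probe is lowest there, and 3 of the 4 Insig1 probes are highest in the prefrontal medial cortex.

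Probes of the same gene gave different answers for the areas. For Insig1 the brightest probe, A_44_P406069, lies nearest the 3′ end of the gene by the coordinates and had a nucleus accumbens minus prefrontal difference of 0.10. The other 3 probes, 784 to 1193 bases further 5′, had -0.45, -0.44 and -0.41 and all passed as lower in the nucleus accumbens (adjusted p 9.2e-04 to 0.0023, limma). The level of the brightest probe minus that of each other probe was larger in every nucleus accumbens pair than in every prefrontal pair, by 0.51 to 0.55. These distances are given as a description, because 3 pool pairs against 3 cannot go below an exact two-sided p of 0.10.

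The 2 probes of Hmgcs1 also differed, with the hippocampus set against the other areas. For the hippocampus the area cannot be told apart from slide and session. Its brightest probe, A_43_P11890, had levels of 13.74, 13.88 and 13.78 in the hippocampus, above its values of 13.19 to 13.47 in the nucleus accumbens. The second probe, A_44_P487240, 2616 bases further 5′, had 8.65 to 8.76 in the hippocampus, below its 9.19 to 9.49 in the nucleus accumbens and 9.63 to 9.82 in the prefrontal medial cortex. That probe passed as lower in the nucleus accumbens than in the prefrontal medial cortex (-0.39, adjusted p 0.0033), as the brightest did not. The distance between the 2 probes' levels was 5.09 ± 0.12 in the hippocampus, 3.94 ± 0.30 in the nucleus accumbens and 3.75 ± 0.08 in the prefrontal medial cortex. Idi1's second probe, 2870 bases further 5′, showed no such rise in the nucleus accumbens (-0.02), and the distance to the brightest probe was 2.52 ± 0.13 there and 2.12 ± 0.05 in the prefrontal medial cortex, without overlap. The 2 Fdps probes, 513 bases apart and both in the sequences shown above, differed by -0.07 between these areas on the brightest and by 0.00 on the other.

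For the strain ratio the probes of a gene also agreed to different degrees over the 9 pool pairs. The r was 0.98 for the Fdps probes and 0.92 for the Idi1 probes, between 0.10 and 1.00 among the 4 Insig1 probes, and -0.14 for the Hmgcs1 probes. The second Hmgcs1 probe had -0.18 ± 0.12, -0.14 ± 0.12 and 0.14 ± 0.12 in nucleus accumbens, prefrontal cortex and hippocampus. The 2 Hmgcs1 probes lay farthest apart in the 2 pool pairs of uncorrelated dye-swapped arrays. The brightest and the second had 0.38 and -0.32 in nucleus accumbens pair 3, and -0.11 and 0.49 in hippocampus pair 2. Their r without these pool pairs was not computed. All of the 6 additional probes also stayed short of the threshold in each area (limma).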

How the data were processed

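Signal was measured on 18 two-colour Agilent arrays. The spot intensities of both channels, foreground and local background, were deposited by the authors as scanner output, and the flags beside them say whether a spot is well above background, per the file headers. The authors' deposited value table holds log2 ratios, positive for WHP on all 18 arrays when set against the scanner's ratios, with medians from -0.011 to 0.022 and a normalization that is not given in the sources used here. Intensities were corrected by normexp (offset 50) and loess in limma 3.58.1 (R 4.3.3), turned to WHP over WLP by the labels' dyes, and averaged over the swapped arrays to 1 value per pool pair. A probe was detected when well above background in 1 strain's channel on at least 4 of its 6 arrays. Tests used lmFit and eBayes over 9 pool pairs with 1 coefficient per area, two-sided, Benjamini-Hochberg adjusted over all detected probes at 0.05. In this fit the areas share 1 estimate of a probe's spread. Levels are channel means after loess and quantile normalization between arrays. Probes were named through RefSeq accessions or file symbols, which left 19722 of 41012 unnamed, and all 14 member probes carry their gene's own accession. The members, lists and rule for named genes (list genes past a test, otherwise up to 4 per list and comparison with the smallest p, and the 10 genes with the highest r to the members' mean) were chosen with earlier results of these data known. Single values of some list genes are not reported here. The strain test was tested on simulated data. With 3 pool pairs per area, precision is limited by their number.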

Additional observations from a re-analysis of the deposited data

Results flagged for a closer look

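Fdps was singled out because its strain ratio was positive in all 3 nucleus accumbens pool pairs and negative in all 3 hippocampus pool pairs. The difference of the log2 ratios, nucleus accumbens minus hippocampus, was 0.26 ± 0.09. It was tested as a contrast in the same limma fit and did not pass (unadjusted p 0.0172, adjusted p 0.577 over 29842 probes, of which 8.63% had an unadjusted p under 0.05). Without nucleus accumbens pair 3, an alternative chosen after seeing the data, the difference was 0.16 ± 0.06 (unadjusted p 0.0372, adjusted p 0.994). The second Fdps probe had the same pattern, with 3 positive nucleus accumbens pairs and 3 negative hippocampus pairs.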

How the results depend on the processing

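None of the 424 values of a member in an area under the alternatives passed the test, and 39 of them turned sign, in 18 of 24 results. Alternatives that change only the detection filter, the variances, the probes tested, the areas fitted or the block leave the ratios as they were. They could not turn a sign, so 39 of 424 is not a rate of steadiness. In the mean of the areas, 1 member passed with WHP in Cy3 only, Fdps at 0.19 (adjusted p 0.0250). With array medians in place of loess the members' median was 0.21 in the nucleus accumbens, -0.0056 in the prefrontal medial cortex and -0.26 in the hippocampus. The hippocampus median was -0.021 with WHP in Cy3 only and -0.048 with all probes of a gene averaged, an alternative chosen after seeing the data. Leaving out 1 pool pair at a time gave medians from -0.088 to -0.058 in the hippocampus, -0.03 to 0.15 in the nucleus accumbens, -0.11 to -0.07 in the prefrontal medial cortex and -0.06 to -0.02 in the mean. The median r of the members' co-variation ran from 0.043 to 0.49 with 1 pool pair left out, the lowest without nucleus accumbens pair 3. It was 0.10 without the 2 pool pairs farthest from the median, 0.055 with WHP in Cy3 only, and 0.019 without the 2 pool pairs of uncorrelated dye-swapped arrays. For levels, array medians in place of quantiles gave a members' median of 0.086, 0 higher and 0 lower, the scanner's processed signals 1 and 1, and the fit without the hippocampus 1 lower. Leaving out 1 pool pair gave 1 to 2 lower and 2 higher. The cause of these changes was not tested.

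Same-numbered pool pairs did not deviate together in the strain ratios (r from -0.38 to 0.17) or in the nucleus accumbens and prefrontal levels (0.01 to 0.12), so the numbers were not taken as pairs. With the replicate block 0 members passed in each area. The members' medians stayed at 0.07, -0.07 and -0.09, as the balanced block cannot change them. The replicate block on levels, fitted without the hippocampus, left 1 member higher and 2 lower. Over all alternatives the probes past the strain test numbered 0 to 725 in the nucleus accumbens, against 76, and 0 to 73 in the prefrontal medial cortex, against 26. They numbered 2 to 121 in the hippocampus, against 87, and 269 to 1666 in the mean, against 810. Under the replicate block they were 11, 3, 19 and 491. The mean of areas could not be fitted with an area alone or with the first scan session alone.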
